A study of Mus musculus with 12 samples.

Results

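The transcripts of 10 genes of the p53 response and the BCL2 family were followed through the cells of the mouse superior mesenteric ganglion (SMG), the sympathetic ganglion in which tumors of the Th-MYCN line arise. They were Trp53, its inhibitor Mdm2, the p53 targets Cdkn1a, Bax, Bbc3 and Pmaip1, the anti-apoptotic genes Bcl2, Bcl2l1 and Mcl1, and the pro-apoptotic Bcl2l11. They were taken by gene symbol from the 32286 features of the count matrices, and all 10 symbols were found. Single-cell RNA-seq had been performed on SMG of 12 mice of the strain 129+Ter/SvJcl: 1 wild-type (WT) mouse at 3 weeks, 10 hemizygous Th-MYCN+/- mice at 3 weeks, and 1 hemizygous Th-MYCN+/- mouse at 6 weeks whose SMG was chosen because a tumor was visible. In this line the rat tyrosine hydroxylase promoter drives human MYCN in sympathetic cells, and the labels name no allele of Trp53 or another member. Values are counts of unique molecular identifiers (UMIs), each standing for 1 captured RNA molecule. A level is given as UMIs of a gene per 1000000 UMIs (CPM) of all cells of a class in 1 mouse, with the mean ± SD over mice. No group but the 3-week-old Th-MYCN+/- mice had replicates, so that the WT and 6-week values are shown without a test and with 95% Poisson intervals that hold only the error of counting.

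p53 is a transcription factor that accumulates after DNA damage or oncogene activation and switches on genes that halt division or start cell death. Mdm2 is itself a p53 target and marks p53 protein for degradation, so that most control of p53 acts on the protein and not on its transcript. Bax, Bbc3 (PUMA), Pmaip1 (NOXA) and Bcl2l11 (BIM) push mitochondria towards release of cytochrome c, whereas Bcl2, Bcl2l1 (BCL-XL) and Mcl1 hold them back. MYC proteins are known to sensitize cells to apoptosis.

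The promoter sequences show which members carry the letters that MYC and p53 proteins are known to recognize. RefSeq windows from 250 bases before to 50 after a start site (GRCm38.p6) were found for 9 of the 10 members. The E-box CACGTG, which reads the same on both strands, occurred in a window of 3 of them, Trp53, Bax and Bbc3, and in 8.09% of all 27025 genes with a window (7.15% of all 32851 windows). The p53 half-site occurred in a window of Trp53, Mdm2, Cdkn1a and Bax, and in 9.55% of all genes (8.36% of all windows). The windows of Trp53 (chr11:69580109-69580408, plus strand), Bax (chr7:45466849-45467148, minus strand) and the one of 3 Bbc3 windows with an E-box (chr7:16310181-16310480, plus strand) are given here 5′ to 3′ with CACGTG in capitals, since these genes were higher in neuroblast-like than in ganglion-like cells. The upstream one of the 2 windows of Cdkn1a (chr17:29090729-29091028, plus strand) has its p53 half-sites in capitals.
Trp53: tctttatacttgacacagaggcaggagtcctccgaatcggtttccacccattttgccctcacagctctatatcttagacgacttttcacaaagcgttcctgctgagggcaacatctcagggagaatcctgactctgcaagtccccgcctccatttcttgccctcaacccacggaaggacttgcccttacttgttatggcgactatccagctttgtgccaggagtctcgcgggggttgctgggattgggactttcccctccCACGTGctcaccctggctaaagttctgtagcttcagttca
Bax: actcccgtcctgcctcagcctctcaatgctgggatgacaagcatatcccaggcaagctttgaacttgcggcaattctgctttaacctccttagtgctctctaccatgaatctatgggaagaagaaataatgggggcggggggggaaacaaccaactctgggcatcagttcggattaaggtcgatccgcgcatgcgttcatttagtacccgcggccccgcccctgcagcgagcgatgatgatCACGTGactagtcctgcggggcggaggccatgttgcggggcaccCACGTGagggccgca
Bbc3: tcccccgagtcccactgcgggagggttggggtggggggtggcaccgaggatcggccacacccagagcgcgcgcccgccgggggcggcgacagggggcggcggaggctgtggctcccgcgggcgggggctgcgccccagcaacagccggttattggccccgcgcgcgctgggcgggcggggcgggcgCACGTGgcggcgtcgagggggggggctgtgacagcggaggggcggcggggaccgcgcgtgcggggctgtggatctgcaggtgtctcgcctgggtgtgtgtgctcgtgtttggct
Cdkn1a: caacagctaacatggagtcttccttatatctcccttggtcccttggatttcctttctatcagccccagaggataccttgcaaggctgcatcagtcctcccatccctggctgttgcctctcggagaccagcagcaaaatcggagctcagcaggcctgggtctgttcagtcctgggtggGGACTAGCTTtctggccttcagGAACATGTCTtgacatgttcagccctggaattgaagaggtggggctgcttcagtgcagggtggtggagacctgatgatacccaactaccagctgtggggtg
A match in these windows is a match of letters only, and no binding was measured.

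Of the 11995 cells kept, 5245 were neuroblast-like, 2689 ganglion-like and 2930 Schwann-like, classes that were named from marker genes after clustering without the members. Smaller classes were endothelial-like (511 cells), macrophage-like (241), those like myofibroblasts (166) or fibroblasts (141), and NKT-like (45), and 27 cells stayed unnamed. Total UMIs per library were 1147771 in the WT mouse, 4824039 in the 6-week-old mouse and 1444552 to 6388765 in the 3-week-old Th-MYCN+/- mice. The library of mouse #2 stood apart, with 38.6% of its UMIs in called cells, 1491 ganglion-like cells among 1812 and only 12 Schwann-like cells. Of 11902 distinct barcodes, 92 occurred in more than 1 library. Because the class sums were compared per UMI, fewer molecules of a gene cannot be told apart from more RNA of other genes.

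All 10 members were detected, Bcl2l11 and Pmaip1 in too few UMIs to be tested. Over all cells, Bax gave 8799 UMIs, Trp53 3594, Cdkn1a 2636, Bcl2 1364, Bbc3 1238, Bcl2l1 1027, Mcl1 983, Mdm2 981 and Bcl2l11 224. Pmaip1 gave 17 UMIs in 14 cells. Within the 3-week-old Th-MYCN+/- mice, the neuroblast-like class held the highest mean Trp53, Mdm2 and Bbc3 of the 5 largest classes, and the lowest mean Bcl2, Bcl2l1 and Cdkn1a. In each of these the SDs overlapped those of the next class. Mdm2 was at 37.6 ± 7.41 CPM, beside 34.1 ± 32.4 CPM in endothelial-like cells, which rests on 19 UMIs. Schwann-like cells held the highest mean Bcl2 and Cdkn1a, endothelial-like cells the highest Bcl2l1, and macrophage-like cells the highest Bax, Mcl1, Bcl2l11 and Pmaip1, although with SDs that overlapped those of the next class.

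**Figure D1:**
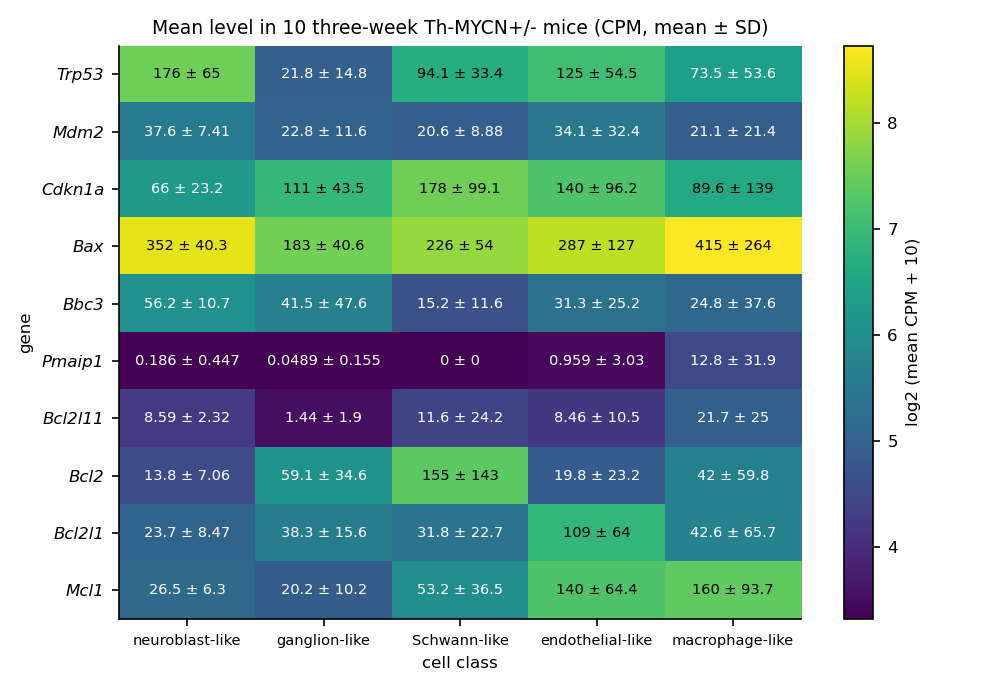
Mean level ± SD (CPM) of each member in the 5 largest cell classes of the 10 Th-MYCN+/- mice at 3 weeks, with color on a log2 (mean CPM + 10) scale. Trp53 was at 176 CPM in neuroblast-like and 21.8 CPM in ganglion-like cells, and Bcl2 at 13.8 and 59.1 CPM.

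Neuroblast-like cells carried more Trp53, Bax and Bbc3 RNA, and less Bcl2, Bcl2l1 and Cdkn1a RNA, than ganglion-like cells of the same mice. Sums of UMIs per mouse and class were compared by edgeR's quasi-likelihood test with Benjamini-Hochberg adjustment over all 7811 genes tested and the mouse as a block. At an adjusted p below 0.05, 6 of the 8 members that passed the filter on low counts were called, beside 66.3% of all genes tested, so that being called was not particular to the members. Called higher were 3 members (31.4% of all genes), and called lower 3 (34.9%). Pmaip1 and Bcl2l11 did not pass the filter. Here and in the later comparisons, overlap between groups of mice was looked at in the members only. Without its share over all genes, a lack of overlap cannot be called particular to them.

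Trp53 showed the widest difference. In neuroblast-like cells it ranged from 100 to 309 CPM (median 146) over the 10 mice, and in ganglion-like cells from 0 to 39.7 CPM (median 27.0). The groups did not overlap, and Trp53 was higher in neuroblast-like cells in 10 of 10 mice. Its log2 fold change was 2.53 (SE 0.27, edgeR adjusted p = 6.11e-08), a 5.76-fold difference. The 309 CPM came from mouse #7. Of 3071 neuroblast-like cells thinned to 1000 UMIs, 50 held 2 or more UMIs of Trp53, and the highest count was 26. The part of single cells in the levels was not tested. The ganglion-like level was below that of free RNA, the RNA in near-empty droplets (96.7 ± 38.4 CPM), and the neuroblast-like level above it. Trp53 lies at chr11:69580359-69591873, and no exon of another gene overlapped its exons in the annotation.

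Mdm2, the ubiquitin ligase of p53, was at 37.6 ± 7.41 CPM in neuroblast-like and 22.8 ± 11.6 CPM in ganglion-like cells (n = 10). It was higher in neuroblast-like cells in 9 of 10 mice, with a log2 fold change of 0.51 (SE 0.23) that missed the threshold (edgeR adjusted p = 0.0587). The call depended on the processing, since it passed in 19 of 23 other settings, among them DESeq2 (log2 0.71, adjusted p = 0.0043) and each fit without mouse #1, #2, #3, #4, #6, #7, #8, #9 or #10. Its ganglion-like level rested on 179 UMIs over all 10 mice.

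Cdkn1a, which encodes the cell cycle inhibitor p21, went the other way. It ranged from 31.8 to 99.5 CPM (median 66.7) in neuroblast-like and from 57.3 to 183 CPM (median 100) in ganglion-like cells, and the ranges overlapped. Within mice it was lower in neuroblast-like cells in 9 of 10 (log2 fold change −0.80, SE 0.20, edgeR adjusted p = 0.00187). The neuroblast-like mean of 66.0 CPM lay below that of free RNA (77.6 ± 20.8 CPM). A gene on the opposite strand overlaps exons of Cdkn1a, whose locus is chr17:29090976-29100727 on the plus strand.

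Of the pro-apoptotic members, Bax was the more evenly shifted. It ranged from 282 to 421 CPM (median 363) in neuroblast-like and from 127 to 264 CPM (median 171) in ganglion-like cells. No ganglion-like value reached the lowest neuroblast-like one, and the difference went the same way in 10 of 10 mice (log2 fold change 0.85, SE 0.14, edgeR adjusted p = 2.2e-05). Free RNA held 313 ± 75.1 CPM of Bax, between the means of both classes. Bax lies at chr7:45461697-45466898 on the minus strand, where a predicted gene overlaps its exons on the same strand.

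Bbc3 was at 56.2 ± 10.7 CPM in neuroblast-like and 41.5 ± 47.6 CPM in ganglion-like cells. Mouse #7 stood apart, since its ganglion-like cells held 168 CPM against 9.24 to 71.6 CPM in the others. Bbc3 was higher in neuroblast-like cells in 8 of 10 mice (log2 fold change 0.78, SE 0.31, edgeR adjusted p = 0.0328), and the call was lost without mouse #5 (0.62, adjusted p = 0.1) and without the mouse as a block (0.62, adjusted p = 0.103). Without mouse #7 it was 1.31 (adjusted p = 2.81e-05). Bcl2l11, the gene of BIM, was not tested, and was at 8.59 ± 2.32 CPM in neuroblast-like against 1.44 ± 1.90 CPM in ganglion-like cells. The latter value rests on 17 UMIs, with 0 UMIs in 5 of 10 mice, so that no direction was read from it.

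Among the anti-apoptotic members, Bcl2 was the one most lowered. It ranged from 0 to 26.0 CPM (median 15.6) in neuroblast-like cells and from 0 to 135 CPM (median 57.0) in ganglion-like cells. It was lower in neuroblast-like cells in 9 of 10 mice, a 4.09-fold difference (log2 −2.03, SE 0.30, edgeR adjusted p = 4.85e-06). The neuroblast-like mean of 13.8 CPM lay below that of free RNA (30.2 ± 10.2 CPM). Bcl2 spans chr1:106538178-106714274 on the minus strand, with an opposite-strand gene over part of its exons.

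Bcl2l1 was at 23.7 ± 8.47 CPM in neuroblast-like and 38.3 ± 15.6 CPM in ganglion-like cells, beside 22.1 to 65.2 CPM in free RNA, and lower in 9 of 10 mice (log2 −0.75, SE 0.24, edgeR adjusted p = 0.00894). This call was lost without mouse #2 (−0.55, adjusted p = 0.0503), mouse #4 (−0.57, adjusted p = 0.0755) or mouse #10 (−0.61, adjusted p = 0.0575), and without the filter on low counts (−0.46, adjusted p = 0.128). Mcl1 was at 26.5 ± 6.30 and 20.2 ± 10.2 CPM, a difference within the error (log2 0.27, SE 0.26, edgeR adjusted p = 0.374).

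**Figure D2:**
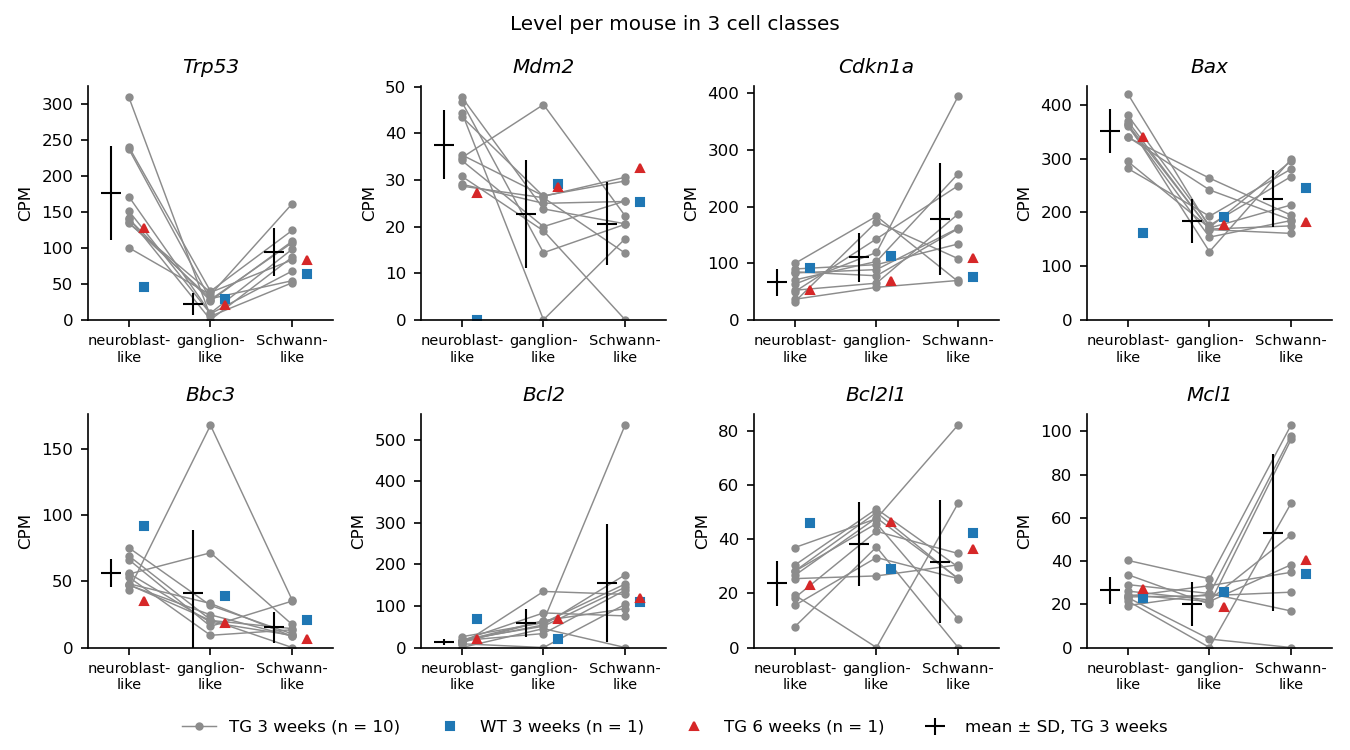
Level (CPM) of 8 members in neuroblast-like, ganglion-like and Schwann-like cells. Grey points joined by lines are the 10 Th-MYCN+/- (TG) mice at 3 weeks, black marks their mean ± SD, blue squares the WT mouse and red triangles the Th-MYCN+/- mouse at 6 weeks; Trp53 of the grey points did not overlap between neuroblast-like (100 to 309 CPM) and ganglion-like cells (0 to 39.7 CPM).

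Against Schwann-like cells, the glia of the ganglion, neuroblast-like cells held less Bcl2, Cdkn1a and Mcl1 and more Bbc3 and Trp53, while the call for Bcl2l1 depended on the processing. Of 8 members tested, 6 were called, 2 higher and 4 lower, beside 67.2% of all 5685 genes tested (35.8% higher and 31.3% lower). This comparison shares its neuroblast-like sums with the former. Scaling by total UMIs in place of TMM moved the median log2 fold change of all genes from 0.08 to 0.34 and the share of calls that were higher from 53.4% to 64.2%, so that small differences here depended on the scaling.

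Bcl2 ranged from 0 to 536 CPM (median 133) in Schwann-like cells, against at most 26.0 CPM in neuroblast-like cells, and was 12.5-fold lower in the latter (log2 −3.64, SE 0.28, edgeR adjusted p = 1.27e-10). The highest Schwann-like value came from mouse #8 and the 0 from the 12 cells of mouse #2, in which 3 UMIs would have made 482 CPM. Cdkn1a was at 178 ± 99.1 CPM in Schwann-like cells, 3.32-fold above neuroblast-like cells (log2 −1.73, SE 0.25, edgeR adjusted p = 2.53e-06). Among Schwann-like cells thinned to 1000 UMIs, the highest count in a cell was 37 for Bcl2 and 43 for Cdkn1a. The part of single cells in these levels was not tested. Mcl1 was at 53.2 ± 36.5 CPM in Schwann-like cells (log2 −1.46, SE 0.26, edgeR adjusted p = 2.97e-05). Bcl2l1 was lower in neuroblast-like cells in 5 of 10 mice and higher in 5 (log2 −0.62, SE 0.26, edgeR adjusted p = 0.0419), and was called in 10 of 23 other settings. The call was lost with DESeq2 (−0.37, adjusted p = 0.262), with scaling by total UMIs (−0.34, adjusted p = 0.254), without the filter (−0.15, adjusted p = 0.806) and in cells with at least 1000 UMIs (−0.28, adjusted p = 0.46). It was also lost without mouse #1, #2, #3, #5, #7, #8 or #9, over which the adjusted p ran from 0.0514 to 0.137.

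Bbc3 was at 15.2 ± 11.6 CPM in Schwann-like cells, and its range of 0 to 35.9 CPM lay below all neuroblast-like values (43.5 to 75.4 CPM). The log2 fold change was 1.40 (SE 0.27, edgeR adjusted p = 7.85e-05). Trp53 was at 94.1 ± 33.4 CPM in Schwann-like cells and lower than in neuroblast-like cells in 9 of 10 mice (log2 0.70, SE 0.19, edgeR adjusted p = 0.00222). Bax (log2 0.33, SE 0.16, edgeR adjusted p = 0.0755) and Mdm2 (log2 0.37, SE 0.22, edgeR adjusted p = 0.142) missed the threshold. Both were higher in neuroblast-like cells in 10 of 10 mice. Both passed when scaled by total UMIs, without the filter on low counts and with DESeq2. There Bax was at 0.58 (DESeq2 adjusted p = 0.000247) and Mdm2 at 0.63 (DESeq2 adjusted p = 0.0212). Bax also passed without mouse #2 (0.35, adjusted p = 0.0197) or mouse #10 (0.37, adjusted p = 0.0299), with stricter cell filters and with log-normalized clustering. Of 23 other settings, Bax was called in 7 and Mdm2 in 3.

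Immediate early genes, which cells switch on within minutes of stress, moved with this comparison. All 14 that were tested were lower in neuroblast-like cells, with a median log2 fold change of −4.29 beside 0.08 for all genes. Their summed level was 1961 ± 369 CPM in neuroblast-like, 2592 ± 885 CPM in ganglion-like and 9274 ± 2447 CPM in Schwann-like cells. Against ganglion-like cells, 1 of 8 tested was called higher and 3 lower. Its part in the values of Cdkn1a, Mcl1 and Btg2, which are also inducible genes, was not tested.

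Ganglion-like cells, which carry markers of sympathetic neurons, were also compared with Schwann-like cells. Of 4 members tested, 4 were called, all lower in ganglion-like cells, beside 68.5% of all 3241 genes tested (34.7% higher and 33.8% lower). Mdm2, Bbc3, Bcl2l1, Mcl1, Bcl2l11 and Pmaip1 did not pass the filter on low counts here. A gene can pass it by its level in 1 class alone, so the shared direction does not stand for all members. Without a test, Bbc3 was higher in ganglion-like cells in 8 of 10 mice and Bcl2l1 in 7, and Mdm2 was lower in 6 and Mcl1 in 8. Trp53 was 4.08-fold lower (log2 −2.03, SE 0.24, edgeR adjusted p = 6.64e-08), with 51.3 to 161 CPM in Schwann-like cells and no overlap with the 0 to 39.7 CPM of ganglion-like cells. Bcl2 (log2 −1.54, SE 0.29, edgeR adjusted p = 5.39e-05) and Cdkn1a (log2 −0.91, SE 0.26, edgeR adjusted p = 0.00331) were lower as well. Bax (log2 −0.50, SE 0.18, edgeR adjusted p = 0.0158) lost its call without mouse #2, #3, #7, #8 or #10, over which the adjusted p ran from 0.059 to 0.105. The call was also lost with DESeq2 (−0.37, adjusted p = 0.0531) and with scaling by total UMIs (−0.30, edgeR adjusted p = 0.104). The same held without the filter (−0.14, edgeR adjusted p = 0.658) and in cells with at least 1000 UMIs (−0.22, edgeR adjusted p = 0.306). It passed in 14 of 23 other settings. In Trp53, the ganglion-like class was thus the low one of the 3, in Bcl2 the neuroblast-like class.

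**Figure D3:**
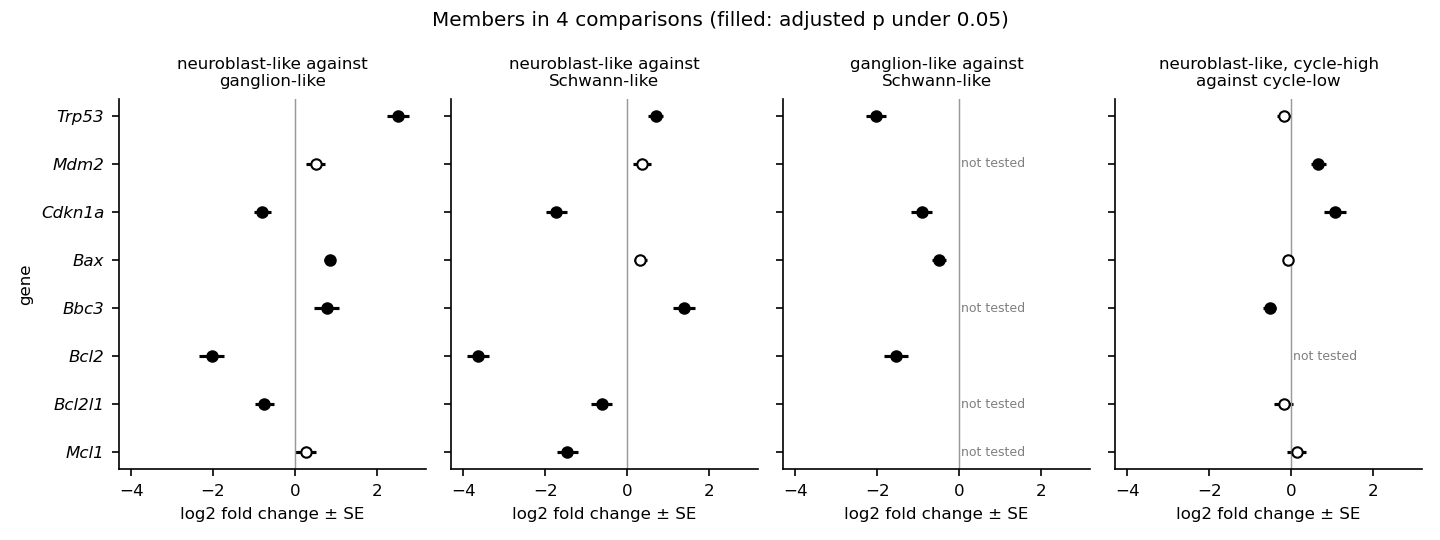
Log2 fold change ± SE of 8 members in 4 comparisons within 3-week-old Th-MYCN+/- mice, from edgeR with the mouse as a block. Cycle-high and cycle-low are neuroblast-like cells ranked highest and lowest by UMIs of cell cycle genes. Filled points passed an adjusted p of 0.05; Bcl2 was lower in neuroblast-like cells against both other classes (−2.03 and −3.64), and Cdkn1a was higher in cycle-high cells (1.08).

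Genes of the same pathways outside the members were called in both directions. Of 30 other p53 targets, 15 were tested in the first comparison, neuroblast-like against ganglion-like, with 1 called higher and 8 lower and a median log2 fold change of −0.45, beside −0.04 for all genes. Perp, a p53 target of desmosomes, fell by 3.32 on the log2 scale (SE 0.46), Ak1 by 1.81 (SE 0.19) and Phlda3, a repressor of Akt, by 1.69 (SE 0.27). The 1 called higher was Gtse1 (log2 4.12, SE 0.53), a microtubule-associated protein of G2 and mitosis that holds p53 down. Of 19 regulators of p53, 7 were tested and 2 called, the kinase Hipk2 (log2 2.08, SE 0.17) and the acetyltransferase Crebbp (log2 0.66, SE 0.26), both higher.

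In the rest of the BCL2 family, 6 of 15 genes were tested. The BH3-only genes Hrk (log2 2.84, SE 0.34) and Bid (log2 2.04, SE 0.30) and the effector Bok (log2 0.62, SE 0.15) were higher in neuroblast-like cells. The anti-apoptotic Bcl2l2 (log2 −2.01, SE 0.24) and the BH3-only Bad (log2 −1.56, SE 0.17) were lower. Among these other BCL2 family genes, those that promote death were thus on both sides. Genes of the caspase cascade were too, with 5 called higher and 3 lower among 11 tested. Birc5, which encodes survivin and is made in dividing cells (log2 5.60, SE 0.29), and Casp2 (log2 2.50, SE 0.39) were among those that were higher. Diablo (log2 −1.95, SE 0.14), Xiap (log2 −0.80, SE 0.27) and the cytochrome c gene Cycs (log2 −0.27, SE 0.11) were lower.

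Against Schwann-like cells, Bid (log2 3.62, SE 0.48), Bok (log2 3.61, SE 0.42) and Hipk2 (log2 2.09, SE 0.23) were again higher, and Phlda3 (log2 −3.76, SE 0.22) and Bad (log2 −1.06, SE 0.18) again lower. Of the other p53 targets, 2 were called higher and 4 lower among 9 tested, with a median log2 fold change of −0.13. Zmat3 (log2 0.94, SE 0.27) and Ptp4a3 (log2 1.29, SE 0.24) were the 2 higher. Casp6 was lower in neuroblast-like cells (log2 −3.25, SE 0.24) and also lower in ganglion-like than in Schwann-like cells (log2 −3.80, SE 0.35).

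**Figure D4:**
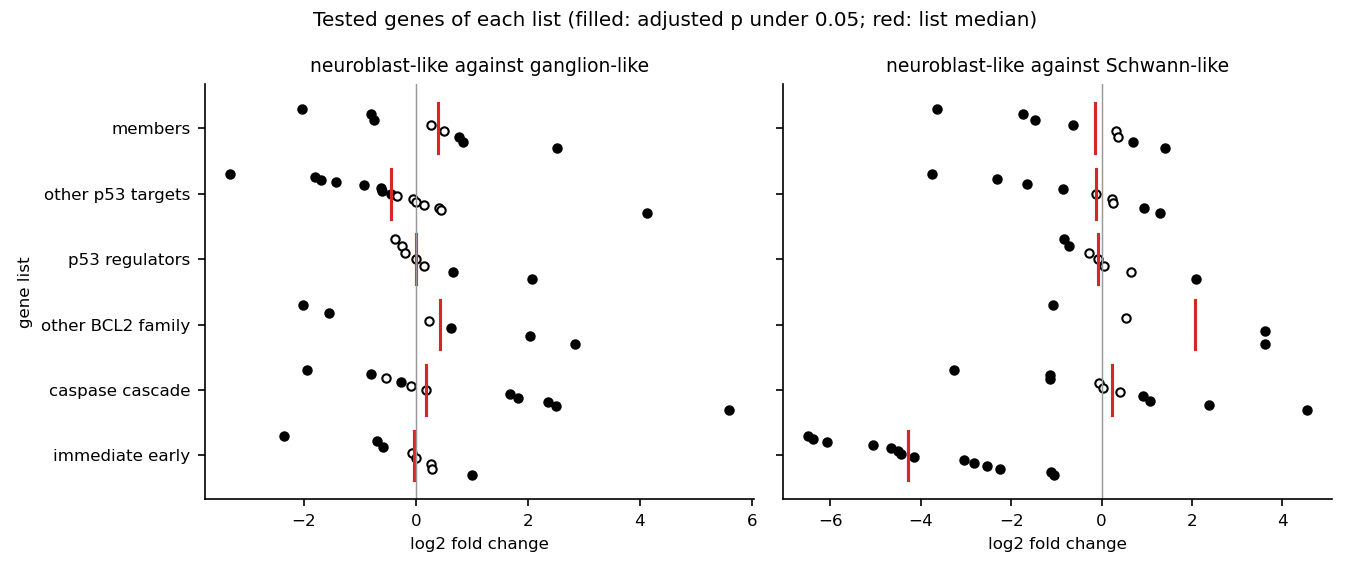
Log2 fold changes of the tested genes of each list, neuroblast-like against ganglion-like cells (left) and against Schwann-like cells (right), with called genes filled and list medians in red. The other p53 targets had a median of −0.45 on the left and −0.13 on the right, and the immediate early genes one of −4.29 on the right.

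Within the neuroblast-like class, 2 p53 targets followed the cell cycle upwards and 1 downwards. In 9 mice, cells with at least 1000 UMIs were ranked by their UMIs of S and G2M genes after thinning to 1000 UMIs, and split by rank into 3 groups of equal size. The highest group (cycle-high) was compared with the lowest (cycle-low), each of 41 to 209 cells per mouse. Of 7 members tested, 3 were called, 2 higher and 1 lower, beside 35.8% of all 5624 genes tested (16.8% higher and 19% lower). Mouse #2 had too few such cells.

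Cdkn1a ranged from 46.7 to 190 CPM (median 83.2) in cycle-high and from 11.6 to 116 CPM (median 38.8) in cycle-low cells. The ranges overlapped, but it was higher in cycle-high cells in 8 of 9 mice, a 2.11-fold difference (log2 1.08, SE 0.27, edgeR adjusted p = 0.00532). Without the mouse as a block the adjusted p was 0.0563. Mdm2 was at 47.3 ± 10.6 CPM (median 44.2) in cycle-high cells, against 18.1 to 52.3 CPM (median 31.3) in cycle-low cells, higher in 7 of 9 mice (log2 0.67, SE 0.19, edgeR adjusted p = 0.012), and passed in 20 of 20 other settings.

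Bbc3 went the opposite way. It was at 43.2 ± 13.3 CPM in cycle-high and 62.9 ± 15.5 CPM in cycle-low cells, lower in 9 of 9 mice (log2 −0.53, SE 0.15, edgeR adjusted p = 0.013), and missed the threshold only without the filter on low counts (−0.46, adjusted p = 0.107) among 20 other settings. Trp53 (log2 −0.18, SE 0.16, edgeR adjusted p = 0.402), Bax (log2 −0.07, SE 0.12, edgeR adjusted p = 0.696), Bcl2l1 (log2 −0.18, SE 0.23, edgeR adjusted p = 0.564) and Mcl1 (log2 0.14, SE 0.23, edgeR adjusted p = 0.667) were not called. With log-normalized clustering Trp53 was called (−0.38, adjusted p = 0.0441). Bcl2 was not tested, at 14.7 ± 5.18 against 17.9 ± 11.5 CPM. Trp53 of cycle-low cells held 1 high value, 575 CPM in mouse #7 (99 UMIs in 41 cells), against 97.5 to 261 CPM in the others. The highest count of Trp53 in a neuroblast-like cell thinned to 1000 UMIs was 26. The part of single cells in the value of mouse #7 was not tested.

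Of 10 other p53 targets tested, 2 were called, both lower in cycle-high cells, Ak1 (log2 −1.26, SE 0.27) and Btg2 (log2 −0.81, SE 0.26), an inhibitor of proliferation. Of the other BCL2 family genes, Bok was higher (log2 0.50, SE 0.18), and Bad (log2 −0.89, SE 0.20) and Bid (log2 −0.63, SE 0.20) lower. Aifm1 (log2 0.54, SE 0.15) was higher and Diablo (log2 −0.73, SE 0.23) lower. Summed ganglion markers moved with the cycle groups, from 2361 to 3024 CPM in cycle-high and from 3160 to 25625 CPM in cycle-low cells of the 9 mice, and Schwann markers from 472 to 990 and from 827 to 2730 CPM. Their part in these differences was not tested.

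**Figure D5:**
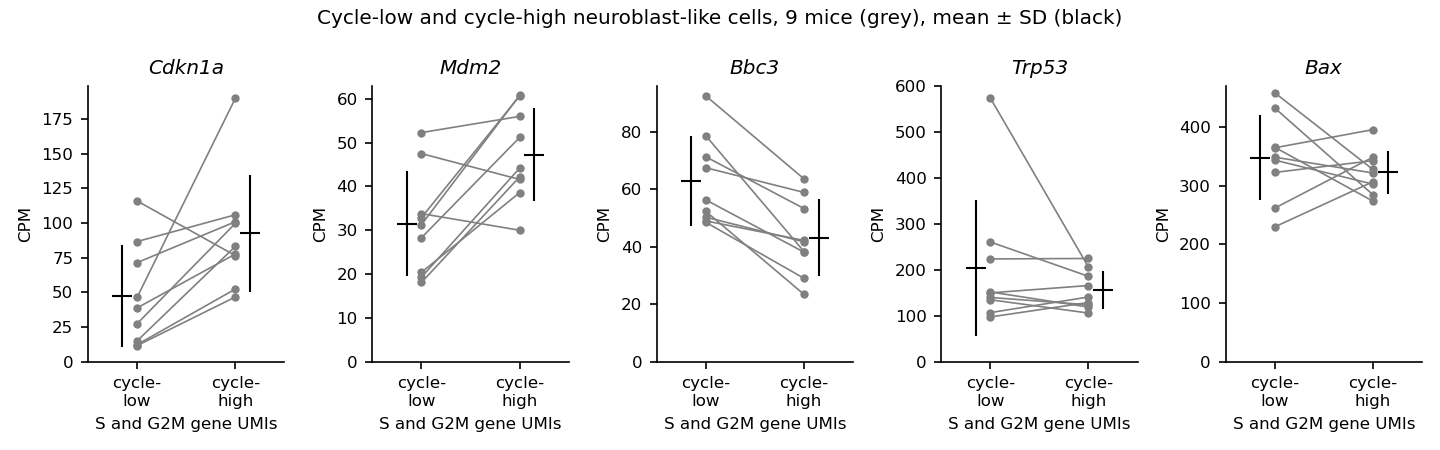
Level (CPM) of 5 members in cycle-low and cycle-high neuroblast-like cells, ranked by UMIs of S and G2M genes, with 1 grey line per mouse (n = 9) and mean ± SD in black. Bbc3 was lower in cycle-high cells in 9 of 9 mice, and Cdkn1a was higher in 8 of 9.

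Levels in the 3 neuroblast-like clusters are given without a test because the clusters were made from these cells. In the cluster led by Top2a and Cdc20, genes of mitosis, Cdkn1a was at 74.5 ± 35.0 CPM and Bbc3 at 36.0 ± 17.1 CPM. In the cluster led by Cartpt and H-MYCN, Cdkn1a was at 28.6 ± 23.8 CPM and Bbc3 at 71.5 ± 14.2 CPM. The remaining cluster, of shallow cells (median 491.5 UMIs) and led by Pbk and Cdk1, held 82.1 ± 42.6 CPM of Cdkn1a and 65.4 ± 24.6 CPM of Bbc3.

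No difference of a member was detectable between neuroblast-like cells with and without a UMI of the transgene, H-MYCN, at 1000 UMIs. The comparison held 29 to 178 cells with and 94 to 494 cells without H-MYCN per mouse in 9 mice. Of 7 members tested, none was called by edgeR, beside 0.559% of all 6256 genes (0.032% higher and 0.527% lower), none had an unadjusted p below 0.05, and none was called by DESeq2. Cdkn1a was at 53.3 ± 36.2 CPM with and 65.4 ± 23.1 CPM without H-MYCN (log2 −0.39, SE 0.20, edgeR adjusted p = 0.502), lower in 7 of 9 mice. Trp53 was at 190 ± 38.3 and 186 ± 85.2 CPM (log2 0.14, SE 0.15, edgeR adjusted p = 0.79). The other 5 lay between −0.08 and 0.10 on the log2 scale. Summed ganglion markers were at 3296 ± 395 CPM with (n = 9) and 6864 ± 5106 CPM without H-MYCN (n = 9), and their part was not tested. At this depth a cell without a UMI of H-MYCN need not lack its RNA.

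No other p53 target was called higher by edgeR in cells with a UMI of Cdkn1a. In 8 mice, 12 to 23 cells with and 172 to 606 cells without Cdkn1a at 1000 UMIs were compared per mouse, with Cdkn1a itself left out of the test. Of 6 members tested, none was called by edgeR, beside 0.0177% of all 5658 genes (the 1 gene was Dlk1, named here after its value was seen), 1 had an unadjusted p below 0.05, and none was called by DESeq2. That 1 was Bax, at 284 ± 128 CPM with and 349 ± 40.6 CPM without Cdkn1a (log2 −0.41, SE 0.15, unadjusted p = 0.0115 and edgeR adjusted p = 0.434), lower in 6 of 8 mice. Mdm2 was at 36.1 ± 25.0 and 36.8 ± 8.49 CPM, and Trp53 from 73.8 to 262 and from 133 to 242 CPM (log2 −0.30, SE 0.18, edgeR adjusted p = 0.677). Of 9 other p53 targets tested, edgeR called none and 2 had an unadjusted p below 0.05. Phlda3 was higher in cells with Cdkn1a (log2 1.18, SE 0.34, edgeR unadjusted p = 0.00218 and adjusted p = 0.415). Plk2 was lower (log2 −0.71, SE 0.33, edgeR unadjusted p = 0.0457 and adjusted p = 0.6). Both are named here after their values were seen. The cells with Cdkn1a numbered 144 in all, which limits the precision. A cell without a UMI of Cdkn1a at 1000 UMIs need not lack its RNA. In the unthinned sums, the cells without held 580 UMIs of Cdkn1a (27.2 to 69.4 CPM over mice). The cells with it held 303 UMIs (234 to 606 CPM). The comparison was thus one of more against less Cdkn1a, not of presence against absence.

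In the neuroblast-like cells of the 6-week-old mouse, 8 of 10 members lay within the span of the Th-MYCN+/- mice at 3 weeks. Bbc3 was below that range, at 35.1 CPM (95% interval 28.0 to 43.5) against 43.5 to 75.4 CPM, and Mdm2 at 27.2 CPM (21.0 to 34.6) against 28.7 to 47.8 CPM, and neither interval was clear of the range. Trp53 was at 128 CPM, Bax at 340 CPM, Cdkn1a at 53.1 CPM and Bcl2 at 21.3 CPM in the 371 neuroblast-like cells of this mouse. Its ganglion-like cells held 20.7 CPM of Trp53, 176 CPM of Bax, 69.0 CPM of Cdkn1a and 69.0 CPM of Bcl2, so that Trp53 and Bax were higher, and Bcl2 and Cdkn1a lower, in neuroblast-like cells here too. Mdm2 went the other way, at 27.2 CPM in neuroblast-like and 28.6 CPM in ganglion-like cells.

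The WT mouse held 33 neuroblast-like cells with 43371 UMIs in all, too few to place the members. Trp53 gave 2 UMIs there (46.1 CPM, 95% interval 5.58 to 167, against 100 to 309 CPM in 3-week-old Th-MYCN+/- mice) and Bax 7 UMIs (161 CPM, 64.9 to 333, against 282 to 421 CPM). Mdm2 gave 0 UMIs, which allows up to 69.2 CPM. Of the other 7, 4 lay above the range and 3 inside it, and no interval was clear of the range. In the 87 ganglion-like cells of the WT mouse, 9 of 10 members lay within the span of the Th-MYCN+/- mice at 3 weeks, with Trp53 at 29.1 CPM (0 to 39.7), Cdkn1a at 113 CPM (57.3 to 183), Bax at 191 CPM (127 to 264) and Bcl2 at 19.4 CPM (0 to 135). The exception was Pmaip1 with 1 UMI. All 10 lay inside the range in the 360 Schwann-like cells, where Bcl2 was at 110 CPM. With 1 mouse, no difference between WT and Th-MYCN+/- mice was tested.

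Over 45 class sums of the 3-week-old Th-MYCN+/- mice, the genes with the pattern most like Trp53 were Hdac1 (Pearson r = 0.832), Serbp1 (r = 0.815) and Rplp0 (r = 0.797), on log2(CPM + 10) values. Those most like Mcl1 were Ifnar2 (r = 0.807), Fcgrt (r = 0.792) and Acvrl1 (r = 0.788), and those most like Bcl2 Arhgef10 (r = 0.75), Mtss2 (r = 0.746) and Gramd1b (r = 0.745). Mdm2 came closest to Ganab (r = 0.748), Bax to Lrrc59 (r = 0.717), Cdkn1a to Ctnnbip1 (r = 0.703), Bcl2l1 to Rasgrp3 (r = 0.688), Bbc3 to Trim27 (r = 0.629) and Bcl2l11 to Spg21 (r = 0.559). The sums share libraries and differ in depth, and these values describe the order of levels over classes.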

How the data were processed

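SMG of 12 mice were dissociated enzymatically and profiled with Chromium 3' v1 libraries. The authors aligned the reads with Cell Ranger to a mouse reference (mm10) that included the human transgene (3.0.2 per the file headers). No source used here gives the annotation release. The deposited values are raw counts of UMIs per gene and barcode, with all droplets kept.

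Cells were called with a rewritten EmptyDrops test (barcodes up to 100 UMIs as free RNA, 10000 draws, FDR 0.01), giving 16128 barcodes. Of these, 4015 had under 200 genes and 222 over 10% mitochondrial UMIs, leaving 11995. Cells were clustered with Seurat 5.3.0 and sctransform 0.4.2 (R 4.3.3) and classes named from marker lists, of which at least 3 had to pass. Scrublet (scanpy 1.11.5) called 0.434% of cells, too few to have worked, so no doublets were removed.

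UMIs were summed per mouse and class (at least 5 cells) and tested with edgeR 4.0.16 (filterByExpr, TMM, quasi-likelihood, mouse as a block, adjusted p under 0.05), two-sided. DESeq2 1.42.0 was an alternative, besides other filters, scalings, clusterings, thinning and leaving out each mouse. Cycle, H-MYCN and Cdkn1a arms were set on counts thinned to 1000 UMIs per cell, and unthinned sums were tested. The scripts were tested on simulated data. The arms of a comparison come from the same mouse and library, which is where the pairing comes from, and same-mouse deviations correlated at −0.00711 to 0.314 (neuroblast-like and ganglion-like) and 0.111 to 0.477 (cycle groups). Each mouse is 1 replicate. Intervals are 95% Poisson intervals, and a count of 0 was given the limit of 3 counts. Both cover counting error only. Gene positions come from GENCODE on GRCm38 (the mm10 build) and promoters from RefSeq.

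The members and gene lists were chosen with earlier results of these data known. Some results are not reported here. Named were all members, and from each list at most 3 called genes per direction with the largest change. For likeness, the 3 genes with the highest Pearson r over sums of at least 20000 UMIs were named, among genes with a mean of at least 20 CPM and for members with at least 100 UMIs. Python 3.11.15, numpy 2.4.6, scipy 1.17.1, pandas 2.3.3 and matplotlib 3.10.9 were used.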

Additional observations from a re-analysis of the deposited data

Results flagged for a closer look

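In 11 of 48 groups of 9 or 10 mice, 1 mouse lay further from the others than Dixon's 95% criterion allows. For normally distributed values chance does so in about 1 of 20 groups. Some groups held counts near 0, where 1 mouse with UMIs among mice with 0 is flagged in any case. The number flagged is thus no measure of an excess over chance. Bbc3 was at 168 CPM in ganglion-like cells of mouse #7, against 9.24 to 71.6 CPM in the others. Bcl2l1 was at 0 CPM in ganglion-like cells of mouse #3, against 26.5 to 51.3 CPM, where 3 UMIs would have made 27.7 CPM. In Schwann-like cells, Mdm2 was at 0 CPM in mouse #2 (others 14.3 to 30.6), whose 12 cells allow up to 482 CPM so that the 0 does not set it apart, Bcl2 at 536 CPM in mouse #8 (others 0 to 175) and Bcl2l11 at 79.6 CPM in mouse #9 (others 0 to 9.57). Bcl2l11 gave 37 UMIs in the Schwann-like cells of all 10 mice. Among those thinned to 1000 UMIs, the highest count in a cell was 22 for Bcl2l11 and 37 for Bcl2. Single cells can thus carry such values, and their part in them was not tested. Pmaip1 was at 1.39 CPM in neuroblast-like cells of mouse #10 (others 0 to 0.468), at 0.489 CPM in ganglion-like cells of mouse #2 (others 0) and at 3.14 CPM in cycle-low cells of mouse #10 (others 0), values that rest on 17 UMIs in the whole series. In cycle-low cells, Trp53 was at 575 CPM in mouse #7 (others 97.5 to 261) and Bcl2 at 44.6 CPM in mouse #4 (others 6.86 to 25.9). Among neuroblast-like cells thinned to 1000 UMIs, the highest count of Trp53 in a cell was 26. In cycle-high cells, Cdkn1a was at 190 CPM in mouse #6 (others 46.7 to 106).

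Where all 10 Th-MYCN+/- mice at 3 weeks differed one way, the values of a single mouse of another condition had the other order in 4 cases, and none of these differences was tested. Bax was at 161 CPM in the neuroblast-like cells of the WT mouse, below 191 CPM in its ganglion-like and 245 CPM in its Schwann-like cells. Mdm2 was at 0 CPM in the neuroblast-like and 25.3 CPM in the Schwann-like cells of the WT mouse, but the 0 allows up to 69.2 CPM and gives no direction. In the mouse at 6 weeks, Mdm2 was at 27.2 CPM in neuroblast-like and 32.6 CPM in Schwann-like cells.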

How the results depend on the processing

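Under all alternatives, no called value of a member changed direction. Of the log2 changes of members, 159 of 184 kept their direction and side of the threshold for neuroblast-like against ganglion-like cells, 159 of 182 between neuroblast-like and Schwann-like cells, 81 of 90 between ganglion-like and Schwann-like cells, 129 of 140 between cycle groups, 128 of 147 for H-MYCN (the other 19 changed sign) and 110 of 122 for Cdkn1a (11 changed sign). Without the filter on low counts, where more genes were tested, 8085 genes were called between neuroblast-like and Schwann-like cells, 6927 between ganglion-like and Schwann-like cells, 3233 between cycle groups, 417 for H-MYCN and 188 for Cdkn1a, among the last 1 member, Bax (−0.59, edgeR adjusted p = 0.0276). For H-MYCN, where 35 genes were called, the count was 5 after subtracting free RNA, 0 with log-normalized clustering, and 9 to 48 without single mice. Within the cycling cluster it was 1 and within the Cartpt cluster 0, alternatives chosen after seeing the data. For Cdkn1a, where 1 gene was called, it was 7 with DESeq2, 10 with log-normalized clustering, 0 after subtracting free RNA, 0 at 500 UMIs and 0 to 3 without single mice. Within the cycling cluster it was 0, also chosen after seeing the data, as were the scaling by total UMIs and the minimum of 1000 UMIs per cell. The cause was not tested.

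Without the mouse as a replicate block, 5246, 3815, 2117, 1673, 1 and 0 genes were called in the 6 comparisons, in the order of the report. Among members, the calls of Bbc3 against ganglion-like cells and of Cdkn1a between cycle groups were lost and that of Mdm2 in neuroblast-like against ganglion-like cells was gained (0.58, edgeR adjusted p = 0.0105).

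Some log2 changes that were not called changed sign. Between cycle groups, that of Bax was 0.0043 without the filter and −0.11 to 0.0196 without single mice, that of Bcl2l1 0.0541 with log-normalized clustering and −0.28 to 0.0037 without single mice, that of Mcl1 −0.17 at 500 UMIs and −0.0464 to 0.30 without single mice, and that of Trp53 0.12 at 500 UMIs. For H-MYCN, that of Trp53 was −0.21 within the Cartpt cluster, and Mcl1 changed sign in 6 settings, Bax in 5, Bcl2l1 in 4, Mdm2 in 2 and Bbc3 in 1. DESeq2 moved the median of all genes from −0.04 to 0.16 in the first comparison. Log-normalized clustering moved 16 of 90 levels of members beyond the error given with them. That error was the SD over mice for means and the 95% Poisson interval for values of single mice. Depth limits Pmaip1, Bcl2l11 and all values of the WT neuroblast-like cells.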
